A study of Mus musculus with 10 samples.

Results

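The 10 genes described here carry out bile acid synthesis (Cyp7a1, Cyp8b1, Cyp27a1 and Cyp7b1), conjugation (Slc27a5 and Baat), uptake into the hepatocyte (Slc10a1) and export into bile (Abcb11, Abcb4 and Abcc2). They were listed by name, as well-known members of this pathway, with earlier results of these data known, and all 10 were matched by Ensembl identifier among the 55401 genes of the count table. Their mRNA was measured by polyA RNA-seq in livers of 10 female mouse fetuses at E18.5, shortly before birth. The 5 Mir483Pat-KO fetuses had inherited a deletion of the microRNA gene Mir483 from their father, and the 5 WT fetuses were littermates without it. Mir483 is embedded in the imprinted growth factor gene Igf2, whose active copy is the paternal one. The deletion is constitutive, so that it is present in every cell type of the fetus. The mutant line came from JM8.F6 embryonic stem cells of C57BL/6N origin, from which the selection cassette had been removed by Cre, and was kept by crossing to C57BL/6J; from which of the injected clones these fetuses descend is not given in the sources used here. Likewise, no source used here gives which fetuses shared a litter. Each library came from 1 fetus, and the question addressed was how loss of Mir483 changes the liver transcriptome.

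Bile acids are made from cholesterol in hepatocytes. The classic pathway starts with 7-alpha-hydroxylation by Cyp7a1, and the alternative pathway starts with side chain oxidation by Cyp27a1 and continues with Cyp7b1. The acids are then coupled to taurine or glycine and pumped across the canalicular membrane, and those that return with the portal blood are taken up again. Bile acids limit their own synthesis through the nuclear receptor FXR, encoded by Nr1h4, which induces the repressor SHP (Nr0b2) and the export pump Abcb11. In mice this pathway matures around birth.

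The deleted gene gives rise to a pair of mature microRNAs, which are shown because a microRNA recognises its targets through the seed at positions 2 to 8. The sequences are from RefSeq (GRCm38.p6), the hairpin lies on the reverse strand of chromosome 7 at chr7:142654924-142654996, and capitals mark the seed.
miR-483-3p: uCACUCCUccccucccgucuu
miR-483-5p: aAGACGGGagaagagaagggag

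The 7-base sites complementary to these seeds, AGGAGTG for miR-483-3p and CCCGTCT for miR-483-5p, were looked for in 3′ UTRs, taking the longest of each gene. None of the 10 bile acid genes held either site, in 3′ UTRs of 51 bases (Abcb4) to 3183 bases (Abcc2), nor in any other annotated 3′ UTR of these genes. Of 12875 tested genes with a 3′ UTR, 12.6% held the site for miR-483-3p and 3.28% that for miR-483-5p. The absence of a match says only that these letters are not in those windows.

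RefSeq promoter windows, from 250 bases before to 50 bases after the transcription start, were matched for 6 of the 10 genes: Abcb11, Cyp27a1, Cyp8b1, Abcb4, Abcc2 and Slc10a1, the last with 2 windows. Cyp7a1, Cyp7b1, Slc27a5 and Baat were not matched. Motifs were searched on both strands. FXR is known to bind an inverted repeat spaced by 1 base (AGGTCANTGACCT), and this element with 1 mismatch was found in the window of Abcb11, starting at position −63 from the start site, with the substitution T4C counted from the 5′ end of the motif. Of 32851 windows, 0.0822% held the element with at most 1 mismatch. A further match with 2 mismatches started at −94 of Abcb11, and 1.14% of windows held the element with at most 2. A site for HNF4 (CAAAGTCCA), present in 0.475% of windows, started at position −67 of Cyp8b1. The TATA box (TATAAA, 13.6% of windows) was found at position −31 of Cyp8b1 and on the opposite strand at −128 of the first Slc10a1 window. A palindrome bound by HNF1 (GTTAATNATTAAC) was found with 2 mismatches in Abcc2, at −75, as in 1.36% of windows with at most 2. The NR5A2 site (CAAGGTCA, 1.56% of windows) and the direct repeat spaced by 1 (AGGTCANAGGTCA, 3.86% of windows with at most 2 mismatches), both of which overlap the letters of the inverted repeat, were found in none of the 7 windows. These matches are descriptions of sequence and not sites of measured binding. The Abcb11 and Cyp8b1 windows are printed because they hold the FXR element with 1 mismatch and the HNF4 site, which are in capitals (reverse strand, chr2:69342567-69342866 and chr9:121916256-121916555, GRCm38.p6).
Abcb11: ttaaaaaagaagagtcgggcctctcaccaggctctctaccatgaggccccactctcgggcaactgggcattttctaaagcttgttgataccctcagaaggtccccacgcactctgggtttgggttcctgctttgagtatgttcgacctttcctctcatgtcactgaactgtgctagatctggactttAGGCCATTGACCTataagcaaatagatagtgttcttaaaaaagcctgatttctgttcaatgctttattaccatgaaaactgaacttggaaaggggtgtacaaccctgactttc
Cyp8b1: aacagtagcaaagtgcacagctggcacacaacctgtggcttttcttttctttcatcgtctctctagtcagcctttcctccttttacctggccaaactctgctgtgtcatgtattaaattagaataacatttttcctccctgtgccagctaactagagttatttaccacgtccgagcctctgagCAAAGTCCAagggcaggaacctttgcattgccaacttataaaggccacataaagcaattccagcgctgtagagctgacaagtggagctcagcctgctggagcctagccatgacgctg

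The libraries held 10831350 to 14765880 counts each. The labels were checked on Mir483, which had 11, 10, 22, 21 and 12 counts in WT replicates 1 to 5 and 0 counts in each of the 5 Mir483Pat-KO libraries, where a count of 0 allows at most 3 counts. The 10 hepatocyte markers, among them Alb, Trf and Apob, took 237291 to 265044 CPM (counts scaled to library size) together in WT and 212859 to 246398 in Mir483Pat-KO, so the tissue label fits its defining genes, and 0 of the 10 passed the test, against 2.76% of all genes as lower and 2.43% as higher. With TMM scaling all 10 had a log2 fold change below 0, with a median of −0.14. The summed level of these markers in Mir483Pat-KO was 0.902 times that in WT (two-sided exact permutation test, p = 0.0317, adjusted p = 0.0635 over 6 marker lists), and that of 9 erythroid markers 1.33 times (exact p = 0.0238, adjusted p = 0.0635), with Hbb-bs among those passing the test. Ratios of the other marker sums were 0.957 for cholangiocyte (p = 0.754), 0.993 for macrophage (p = 0.921), 0.867 for endothelial and stellate (p = 0.103) and 0.828 for intestine and pancreas markers (p = 0.0317, adjusted p = 0.0635), by the same exact test. Spp1, at a log2 fold change of 0.02, held 48.8 of the 94.5 CPM of the cholangiocyte sum in WT. Of 7 tested cholangiocyte markers 6 were below 0, with a median of −0.19. Cela1 held 20.6 of the 30.1 CPM of the intestine and pancreas sum in WT. Of the last list, Cdx2 and Fabp6 had no count in any library, and of the macrophage list only Clec4f passed the test, lower in Mir483Pat-KO. In bulk liver, fewer cells of a type and less RNA per cell cannot be told apart. The labels also carry animal identification numbers that fall into a lower range (WT replicates 1 to 4, Mir483Pat-KO replicates 1 and 2) and an upper range (WT replicate 5, Mir483Pat-KO replicates 3 to 5). What sets the ranges apart, such as a litter or a day of collection, is not given in the sources used here. Among the lower range alone the hepatocyte ratio was 0.972 and the erythroid ratio 1.09.

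Synthesis, conjugation, uptake and export each had a gene with less mRNA in the mutant liver. In Mir483Pat-KO, Cyp27a1 fell by 36.6%, Slc27a5 fell by 33.6%, Slc10a1 fell by 23.7% and Abcb11 fell by 39.0%, and no bile acid gene passed the test in the other direction. Of the 10 genes, 9 had enough counts to be tested, Cyp7b1 being the exception, and 4 of the 9 passed an adjusted p of 0.05 (edgeR quasi-likelihood test, Benjamini-Hochberg over 14098 genes) as lower. Over all genes tested, 2.76% passed as lower and 2.43% as higher. With the further requirement of a fold change over 1.5, 3 of the 9 passed (Cyp27a1, Slc27a5 and Abcb11), against 0.872% of all genes. The groups did not overlap in CPM for 3 of the 9 (Cyp27a1, Slc10a1 and Abcb11), against 3.26% of all genes. The median log2 fold change of the 9 genes was −0.38, with all 9 below 0 (8 when libraries were scaled on hepatocyte markers), beside a median of 0.0042 over all genes. CPM values below are scaled by TMM, and each sample value is given in the order of replicates 1 to 5.

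**Figure D1:**
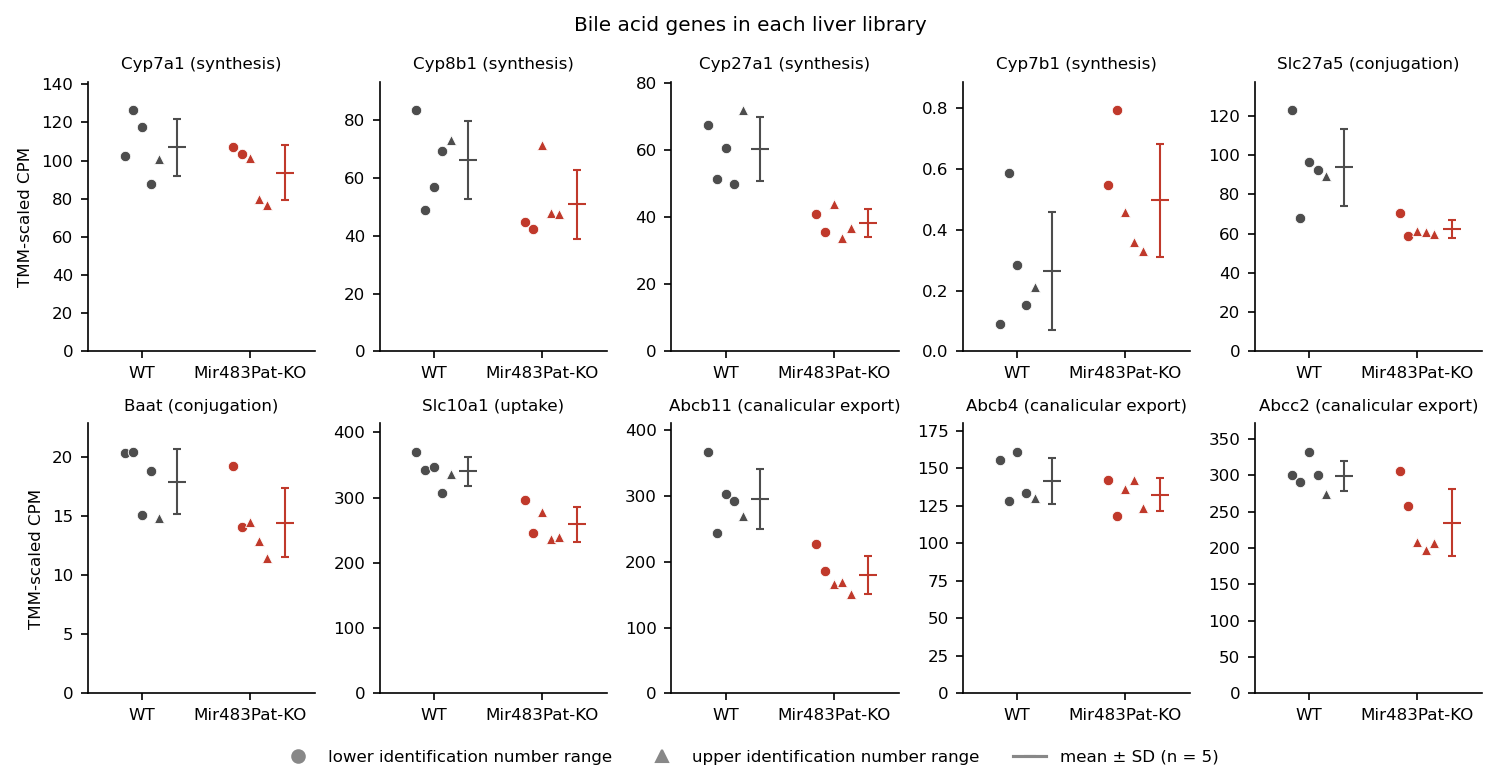
TMM-scaled CPM (y axes, from 0) of the 10 bile acid genes in 5 WT (grey) and 5 Mir483Pat-KO (red) liver libraries, with circles for the lower and triangles for the upper identification number range and bars for mean ± SD. For Cyp27a1, Slc10a1 and Abcb11 all 5 Mir483Pat-KO points lie below all 5 WT points.

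Among the enzymes of synthesis, Cyp27a1 alone passed the test. Cyp27a1 (ENSMUSG00000026170, chr1:74713574-74737892, forward strand), the mitochondrial sterol 27-hydroxylase, had 67.6, 51.4, 60.7, 49.98 and 71.8 CPM in WT. It had 41.0, 35.5, 44.0, 33.9 and 36.7 CPM in Mir483Pat-KO. The highest Mir483Pat-KO value lay below the lowest WT value. Mean levels were 60.3 ± 9.64 and 38.2 ± 4.19 CPM (SD, 5 libraries each), and the log2 fold change was −0.66 (95% interval −0.88 to −0.43, edgeR adjusted p = 0.00384).

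Cyp7a1 (ENSMUSG00000028240, chr4:6265612-6275633, reverse strand), the rate-limiting enzyme of the classic pathway, did not pass. Its values were 102, 126, 118, 87.9 and 101 CPM in WT. In Mir483Pat-KO they were 107, 104, 101, 79.8 and 76.6 CPM. The groups overlapped, with 2 of the 5 mutant libraries below every WT library, and the log2 fold change was −0.19 (95% interval −0.42 to 0.04, edgeR adjusted p = 0.324). This interval spans values from a decrease to a slight increase. Among genes of like GC content, at 39.7% in the exons of Cyp7a1, the median log2 fold change was 0.18, and after offsets for GC content and length Cyp7a1 was called at −0.36 (edgeR adjusted p = 0.0228).

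Cyp8b1 (ENSMUSG00000050445, chr9:121914356-121916305, reverse strand) is the sterol 12-alpha-hydroxylase that steers synthesis towards cholic acid. It had 83.4, 49.1, 57.004, 69.2 and 73.1 CPM in WT. It had 44.9, 42.4, 71.5, 47.9 and 47.5 CPM in Mir483Pat-KO, where replicate 3 stood at the WT level and the other 4 lay below all WT libraries. The log2 fold change was −0.38 (95% interval −0.69 to −0.07, edgeR adjusted p = 0.135). Without Mir483Pat-KO replicate 3 it was −0.55 (edgeR adjusted p = 0.0255), 1 of the 4 among 20 alternatives in which Cyp8b1 passed.

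Cyp7b1 (ENSMUSG00000039519, chr3:18071950-18243338, reverse strand), the oxysterol 7-alpha-hydroxylase of the alternative pathway, was hardly detected. WT libraries held 1, 7, 4, 2 and 3 counts, and Mir483Pat-KO libraries 7, 10, 6, 4 and 5. It did not reach the count filter, and in a fit without a filter its log2 fold change was 0.89 (95% interval −0.18 to 1.95, edgeR adjusted p = 0.484). No difference was called at these counts, and what could be detected at this depth was not tested.

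Of the conjugating enzymes, Slc27a5 was lower and Baat did not pass. Slc27a5 (ENSMUSG00000030382, chr7:12988346-12998192, reverse strand) activates bile acids to their coenzyme A esters. Its values were 123, 67.9, 96.5, 92.5 and 89.3 CPM in WT. They were 70.3, 58.7, 61.4, 60.99 and 59.9 CPM in Mir483Pat-KO. WT replicate 2 was low for its group and overlapped with Mir483Pat-KO replicate 1, and the remaining 4 mutant libraries had less than any WT library. Means of 93.8 ± 19.6 and 62.2 ± 4.60 CPM gave a log2 fold change of −0.59 (95% interval −0.83 to −0.35, edgeR adjusted p = 0.00966), which is only just past a fold change of 1.5.

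Baat (ENSMUSG00000039653, chr4:49489422-49506557, reverse strand) transfers the activated acid to taurine or glycine. It ranged from 14.8 to 20.4 CPM in WT and from 11.5 to 19.2 CPM in Mir483Pat-KO, with 4 of 5 Mir483Pat-KO libraries below all WT libraries and replicate 1 within the WT range. The log2 fold change was −0.31 (95% interval −0.59 to −0.02, edgeR adjusted p = 0.193). Without Mir483Pat-KO replicate 1 it was −0.44 (edgeR adjusted p = 0.0453), the only 1 of 20 alternatives in which Baat passed. With the identification number range as a covariate it was −0.17 (edgeR adjusted p = 0.399).

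Slc10a1 (ENSMUSG00000021135, chr12:80953183-80968705, reverse strand), which encodes the sodium-dependent bile acid uptake transporter NTCP, was lower in every mutant library. WT libraries had 369, 343, 347, 307 and 336 CPM. Mir483Pat-KO libraries had 297, 246, 278, 237 and 239 CPM, all below the lowest WT library. The means were 340.5 ± 22.4 and 259.6 ± 26.8 CPM, and the log2 fold change was −0.39 (95% interval −0.56 to −0.23, edgeR adjusted p = 0.0107).

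Of the canalicular exporters, the bile salt pump was lower and the phospholipid floppase was not shown to change. Abcb11 (ENSMUSG00000027048, chr2:69238282-69342616, reverse strand), the bile salt export pump BSEP, had 366, 243, 303, 292 and 269.7 CPM in WT. It had 226, 186, 166, 169 and 152 CPM in Mir483Pat-KO. The groups did not overlap, and in this fit it was the largest decrease among the 9 tested genes, from 295 ± 45.8 to 179.7 ± 28.6 CPM (log2 fold change −0.71, 95% interval −0.95 to −0.47, edgeR adjusted p = 0.00380). Cyp27a1 fell further in some alternatives, such as with the identification number range as a covariate (−0.71 against −0.61 for Abcb11). Of the exonic bases of Abcb11, 3.01% overlap annotated genes of the opposite strand, and no exon of the other 9 genes overlaps another gene.

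Abcb4 (ENSMUSG00000042476, chr5:8893717-8959231, forward strand) moves phosphatidylcholine into bile, where it protects the duct lining from bile salts. Its values were 156, 128, 161, 134 and 131 CPM in WT and 142, 118, 136, 142 and 123 CPM in Mir483Pat-KO. The groups overlapped, with 2 mutant libraries below the WT range, and the log2 fold change was −0.10 (95% interval −0.27 to 0.08, edgeR adjusted p = 0.512), with its sign turning to 0.03 when libraries were scaled on hepatocyte markers.

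Abcc2 (ENSMUSG00000025194, chr19:43782192-43840740, forward strand), the exporter MRP2 for conjugated organic anions such as bilirubin glucuronides, had 300.4, 291, 331, 299.8 and 275 CPM in WT. In Mir483Pat-KO it had 305, 257, 208, 197 and 207 CPM. Replicate 1 lay at the WT level, and the other 4 lay below all WT libraries. The log2 fold change was −0.35 (95% interval −0.57 to −0.13, edgeR adjusted p = 0.0645), and without Mir483Pat-KO replicate 1 it was −0.47 (edgeR adjusted p = 0.00582). Abcc2 passed in 6 of 20 alternatives, and not with the identification number range as a covariate (−0.23, edgeR adjusted p = 0.0782).

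**Figure D2:**
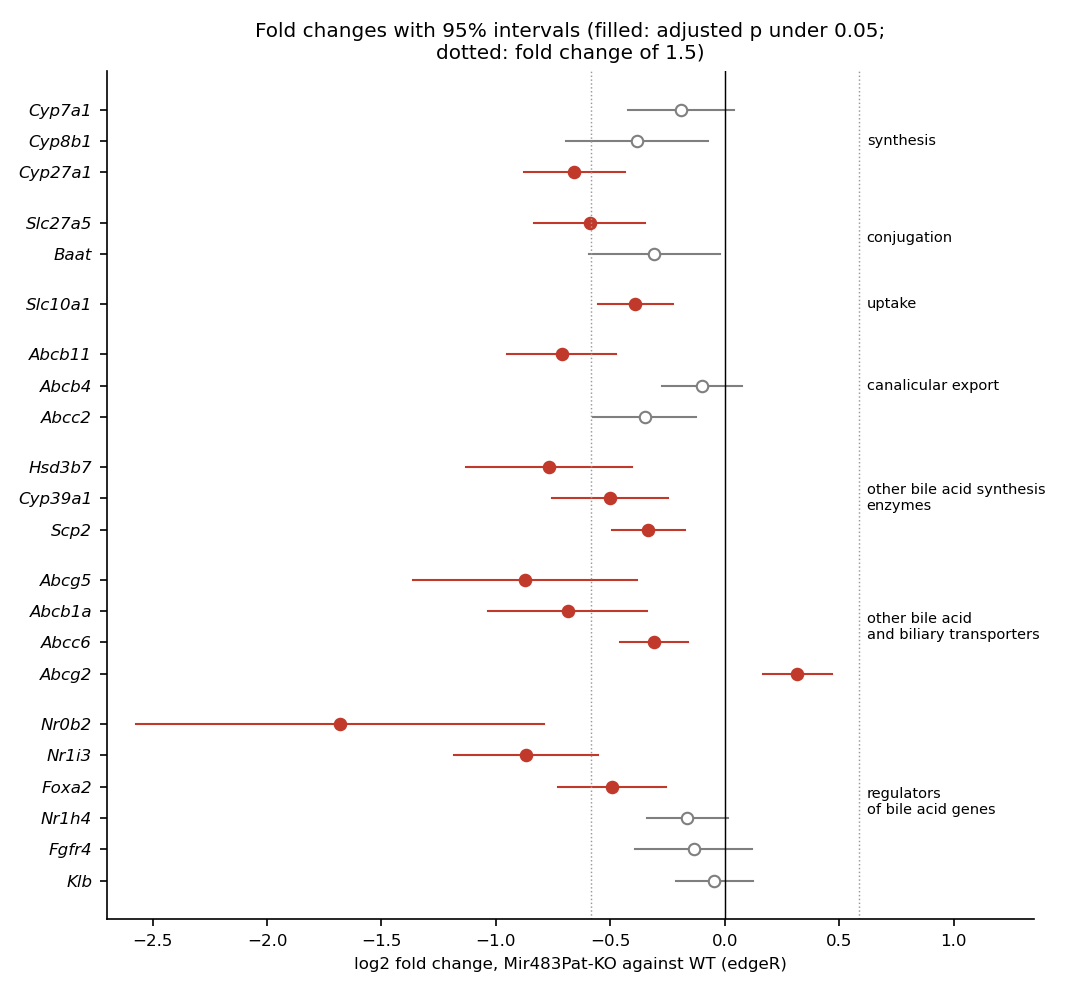
Log2 fold changes of Mir483Pat-KO against WT (x axis) with 95% intervals from edgeR for the 9 tested bile acid genes, by role, and for named genes of the wider pathway. Filled points passed an adjusted p of 0.05 and dotted lines mark a fold change of 1.5, with Abcb11 at −0.71 and Abcb4 at −0.10 at the ends of the range among the 9 genes.

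To see whether genes of the same role moved apart, the log2 ratio of their levels per kilobase was taken within each library, which does not depend on the scaling of libraries. Leaving out Cyp7b1, which did not reach the count filter, there are 7 such pairs, and the comparison was added after the values had been seen. The ratio of Abcb11 to Abcb4 was 1.92 ± 0.14 in WT and 1.30 ± 0.21 in Mir483Pat-KO, with all 5 Mir483Pat-KO libraries below all WT libraries (difference −0.62, two-sided exact permutation p = 0.00794, the smallest this design allows, adjusted p = 0.0556 over 7 pairs). That of Abcb11 to Abcc2 was 0.70 ± 0.20 and 0.35 ± 0.10 (difference −0.35, exact p = 0.0159, adjusted p = 0.0556). That of Cyp7a1 to Cyp27a1 was −0.11 ± 0.32 and 0.34 ± 0.18 (difference 0.46, exact p = 0.0317, adjusted p = 0.0741). None of the 7 pairs passed after adjustment. Over 7 pairs, 1 pair alone could not pass even at the smallest p, so the adjustment cannot decide about a lone pair. In the lower identification number range alone the differences of these pairs were −0.39, −0.41 and 0.55.

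The abundance of the 10 genes differed widely. Per kilobase of annotated exon, Slc10a1 was the highest in WT at 155 ± 10.2 CPM per kilobase and did not overlap with the next, Abcb11, at 57.3 ± 8.90. Slc27a5 (38.5), Abcc2 (35.1), Cyp8b1 (34.0), Cyp27a1 (27.7) and Cyp7a1 (25.6 CPM per kilobase) followed, and neighbours from Abcb11 to Cyp7a1 overlapped between libraries. Abcb4 (15.1), Baat (9.21) and Cyp7b1 (0.12 CPM per kilobase) each lay below the gene before them without overlap. In Mir483Pat-KO, Slc10a1 and Abcb11 were again first and second on this scale, at 118 ± 12.2 and 34.9 ± 5.56, while Slc27a5 stood in place 5 and Cyp27a1, at 17.6, stood behind Cyp7a1, at 22.4, with overlap between the libraries of these neighbours. With the length of the longest transcript in place of all exons, Abcb4 stood at 34.8 and in place 5, so its place depends on the length used. Which of its transcripts are made was not measured.

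**Figure D3:**
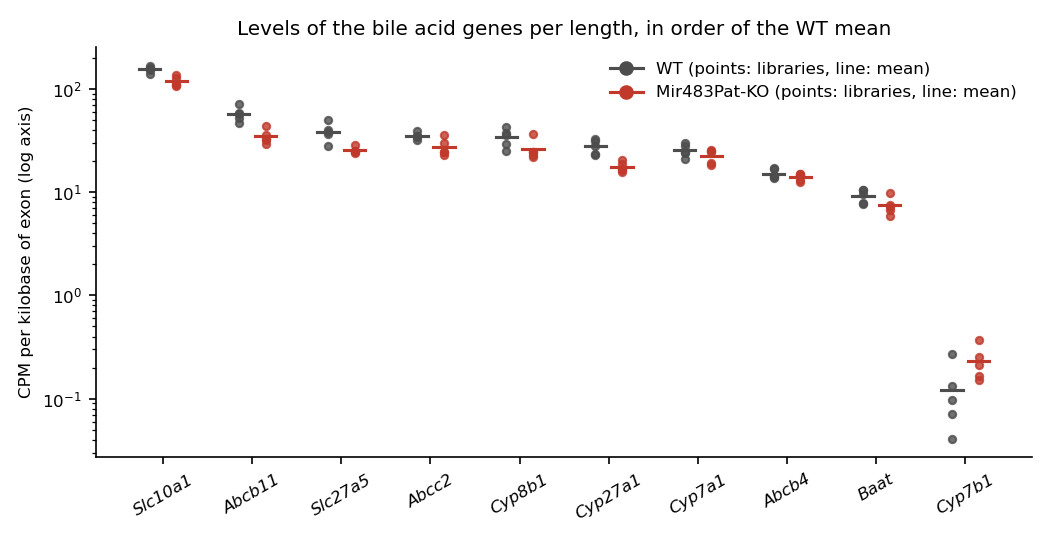
Levels in CPM per kilobase of exon (y axis, logarithmic) of the 10 bile acid genes in WT (grey) and Mir483Pat-KO (red), 1 point per library and a line at the mean, in order of the WT mean. Slc10a1 at 155 and Cyp7b1 at 0.12 CPM per kilobase are the ends of the WT order.

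The Mir483Pat-KO libraries were not equally affected. Replicate 1 had 4 of the 10 genes below all WT libraries, replicate 3 had 6, replicates 2 and 4 had 8 each and replicate 5 had 9. Over all genes tested, the share below all WT libraries was 18.6, 21.7, 23.3, 21.1 and 16.8% in Mir483Pat-KO replicates 1 to 5. The median level of the 10 genes relative to the WT mean was 0.936 in Mir483Pat-KO replicate 1 and between 0.698 and 0.814 in the other 4, against 0.931 to 1.11 in the WT libraries. Abcc2, Abcb11, Cyp7a1 and the scarce Cyp7b1 were lowest in replicates 3 to 5, the libraries of the upper identification number range. The other 6 genes showed no such order. The share of all tested genes with this order was not counted, so nothing is read from it. The summed hepatocyte markers of replicate 1, at 246398 CPM, and its erythroid markers, at 18670 CPM, lay within the WT ranges. Replicate 2 had 234316 CPM of hepatocyte markers, below all WT libraries, and 20348 CPM of erythroid markers, within the WT range. Replicates 3 to 5 had 212859 to 222079 CPM of hepatocyte markers, below all WT libraries, and 24729 to 26587 CPM of erythroid markers, above all WT libraries. The part of these cell types in the differences between mutant libraries was not tested.

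**Figure D4:**
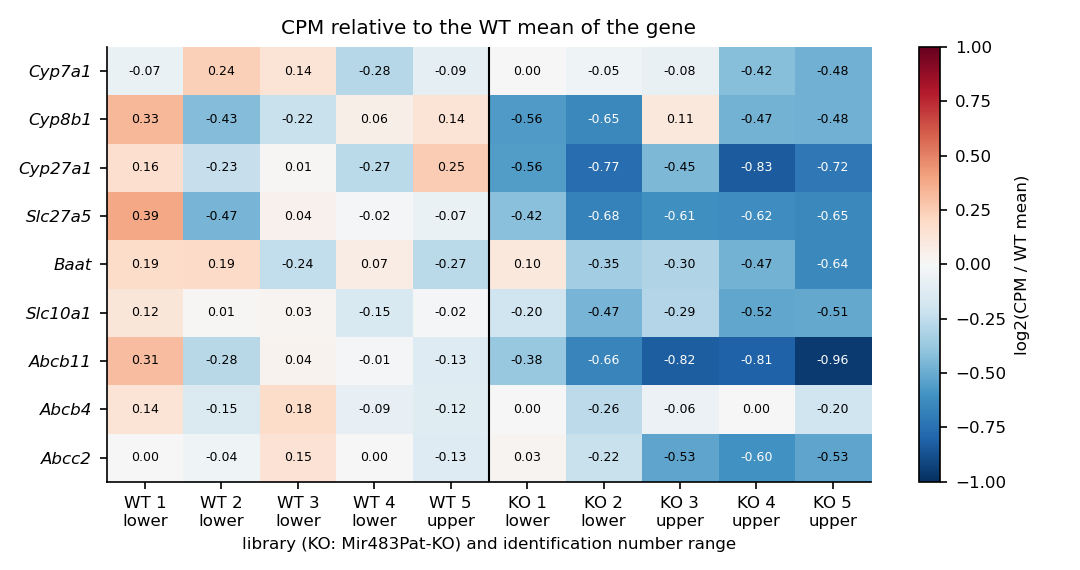
Log2 ratio of CPM to the WT mean (colour and printed value) for the 9 tested genes in each library, with the identification number range under each library. Mir483Pat-KO replicate 1 stays near 0 for Cyp7a1, Baat, Abcb4 and Abcc2, and all Mir483Pat-KO libraries are below 0 for Cyp27a1, Slc27a5, Slc10a1 and Abcb11.

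The 2 ranges were also treated separately. With the range as a covariate, the 4 lower genes stayed past the threshold by edgeR, with log2 fold changes of −0.71 for Cyp27a1 (adjusted p = 0.00389), −0.56 for Slc27a5 (adjusted p = 0.0170), −0.36 for Slc10a1 (adjusted p = 0.0177) and −0.61 for Abcb11 (adjusted p = 0.00538), and Cyp8b1 passed as well at −0.50 (adjusted p = 0.0480). Within the lower range alone, with 4 WT and 2 Mir483Pat-KO libraries, the log2 fold changes of those 4 genes were −0.59, −0.56, −0.33 and −0.55 and none passed (edgeR adjusted p from 0.112 to 0.213), where only 23 genes passed in all. Abcc2 was −0.12 and Cyp7a1 −0.05 in that range, and with the range as a covariate Cyp7a1 was −0.11 (edgeR adjusted p = 0.560). The upper range held a single WT library and was not fitted alone.

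The summed markers of the groups stood at the ratios given above, none of which passed after adjustment. Levels were therefore also scaled so that the mean log level of the 10 hepatocyte markers was equal in all libraries. Single markers can still differ under this scaling. It moved the median over all genes to 0.13 on the log2 scale and left 203 genes lower and 1528 higher. The 4 genes still passed as lower, at −0.53 for Cyp27a1 (edgeR adjusted p = 0.00628), −0.47 for Slc27a5 (adjusted p = 0.0182), −0.27 for Slc10a1 (adjusted p = 0.0298) and −0.60 for Abcb11 (adjusted p = 0.00500). Abcb11 alone then exceeded a fold change of 1.5.

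**Figure D5:**
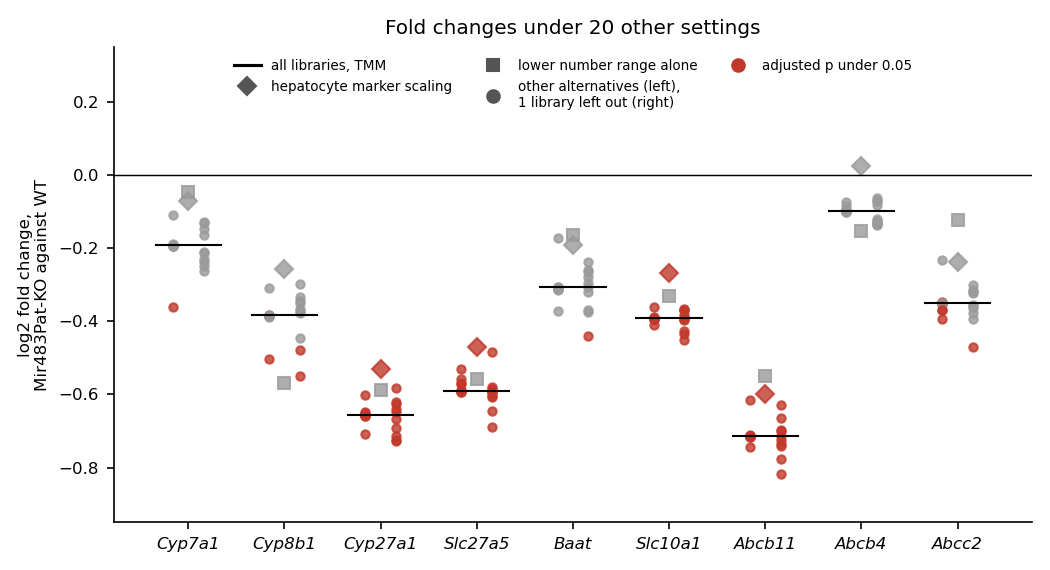
Log2 fold changes of the 9 tested genes (y axis) under 20 other settings, with a black line at the value from all libraries and red for an adjusted p under 0.05. Cyp27a1, Slc27a5, Slc10a1 and Abcb11 are red everywhere except in the lower identification number range alone (squares).

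Other enzymes of the synthesis pathway were examined as a list of 16, of which 14 were tested. Of these, 3 were lower and 0 were higher, against 2.76% and 2.43% of all genes tested, with a median log2 fold change of −0.25. Hsd3b7, the 3-beta-hydroxysteroid dehydrogenase that acts after 7-alpha-hydroxylation, fell from 5.53 ± 1.11 to 3.25 ± 0.52 CPM (log2 fold change −0.77, edgeR adjusted p = 0.0185), without overlap between groups. Cyp39a1, an oxysterol 7-alpha-hydroxylase, changed by −0.50 on the log2 scale (edgeR adjusted p = 0.0259). Scp2, the sterol carrier and peroxisomal thiolase of side chain shortening, changed by −0.33 (edgeR adjusted p = 0.0208). The call of Hsd3b7 was lost in 2 of 20 alternatives, that of Cyp39a1 in 5 and that of Scp2 in 3, among them scaling on hepatocyte markers (−0.21, edgeR adjusted p = 0.0720).

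Of 19 other transporters of bile acids and biliary constituents, 14 were tested, 3 were lower and 1 was higher (2.76% and 2.43% of all genes), with a median log2 fold change of −0.17. Abcg5, one subunit of the cholesterol exporter, had 3.03 to 5.68 CPM in WT and 1.25 to 2.42 CPM in Mir483Pat-KO (log2 fold change −0.87, edgeR adjusted p = 0.0401), and its call was lost in 9 of 20 alternatives. Abcb1a, a drug exporter, changed by −0.69 (edgeR adjusted p = 0.0261) and Abcc6, a transporter of the hepatocyte surface, by −0.31 (edgeR adjusted p = 0.0208), and these calls were lost in 5 and 6 of 20 alternatives. Abcg2, an exporter of conjugated compounds and porphyrins, was the one that rose, by 0.32 (edgeR adjusted p = 0.0201), from 114 ± 8.52 to 142 ± 9.95 CPM, a call lost in 5 of 20 alternatives, among them the offsets for GC content and length (0.14, edgeR adjusted p = 0.305). Abcg2 is also made in erythroid cells, whose markers had the ratios given above, and the part of these cells in its level was not tested.

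Among 20 regulators, 19 were tested, 3 were lower and 0 higher (2.76% and 2.43% of all genes), with a median log2 fold change of −0.20. Nr1i3, which encodes the xenobiotic receptor CAR, fell from 36.8 ± 3.92 to 20.1 ± 5.83 CPM without overlap (log2 fold change −0.87, edgeR adjusted p = 0.00455). Foxa2, a transcription factor known to act on bile acid transport genes, changed by −0.49 (edgeR adjusted p = 0.0201). The call of Nr1i3 was lost in 1 of 20 alternatives, the lower identification number range alone with its 6 libraries (−0.98, edgeR adjusted p = 0.0527). That of Foxa2 was lost in 2, this range (−0.38, edgeR adjusted p = 0.239) and the offsets for GC content and length (−0.40, edgeR adjusted p = 0.0761). The FXR gene Nr1h4 did not pass, at 57.2 ± 2.73 CPM in WT and 51.1 ± 6.65 in Mir483Pat-KO (log2 fold change −0.16, edgeR adjusted p = 0.268). Its target Nr0b2 was scarce, with 33, 7, 35, 27 and 14 counts in WT and 12, 5, 4, 7 and 8 in Mir483Pat-KO. The groups overlapped, and the log2 fold change of −1.68 (95% interval −2.57 to −0.79, edgeR adjusted p = 0.0310) lost its call in 10 of 18 alternatives. DESeq2 gave Nr0b2 no adjusted p, and with a minimum of 10 counts in every library it was not tested, so neither is among the 18. Fgfr4 and Klb, the receptor and coreceptor through which intestinal FGF15 represses Cyp7a1, were at −0.14 (edgeR adjusted p = 0.540) and −0.05 (edgeR adjusted p = 0.781), and the sign for Klb turned to 0.08 when libraries were scaled on hepatocyte markers.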

How the data were processed

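Liver polyA RNA of 5 Mir483Pat-KO and 5 WT fetuses was sequenced by the authors as stranded, paired-end libraries. The authors aligned reads to GRCm38 with STAR and deposited raw counts per Ensembl gene, which are not normalized. The strand setting of the counting and the treatment of reads that map to several places are not given in the sources used here. Sample groups came from the labels. Testing used edgeR 4.0.16 in R 4.3.3 with the quasi-likelihood F-test that the study's methods name. The count filter (filterByExpr), TMM scaling and a design without covariates were chosen here, with Benjamini-Hochberg adjustment over the 14098 genes tested. Calls required an adjusted p below 0.05, and in a second count also a fold change over 1.5. Total counts per library were 10831350 to 14765880, and count limits cover counting error only. A summed level of markers, or a ratio within a library, was compared by exact permutation over 252 arrangements. Gene positions, exons and 3′ UTRs were from GENCODE M21 (GRCm38), and 55141 genes matched a symbol. The 10 genes, the lists and the tests were chosen with earlier results of these data known. All 10 genes were named whatever their result, as were Nr1h4, Nr0b2, Fgfr4 and Klb, with the called genes of each other list (at most 4). Alternatives were RLE scaling, scaling on hepatocyte markers, DESeq2 1.42.0, limma-voom (limma 3.58.1), 2 other count filters, a replicate block, a covariate for the identification number range, its lower part alone, GC content and length offsets, and each library left out in turn. For levels and seed sites they were the longest transcript, 8-base sites and all annotated 3′ UTRs. Leaving libraries out of the marker sums was added after the data were seen.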

Additional observations from a re-analysis of the deposited data

Results flagged for a closer look

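In the 32 groups of 5 libraries examined (10 genes and 6 marker sums in WT and Mir483Pat-KO), 2 held a library farther from the others than Dixon's criterion allows, and chance flags about 1 in 20 groups. The level of Cyp8b1 in Mir483Pat-KO replicate 3 was 71.5 CPM, while the next highest Mir483Pat-KO library had 47.9 CPM. The level of Slc27a5 in Mir483Pat-KO replicate 1 was 70.3 CPM, and the next had 61.4 CPM.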

How the results depend on the processing

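The call of Cyp27a1, Slc27a5, Slc10a1 and Abcb11 as lower held in 19 of 20 alternatives each and was lost in the lower identification number range alone, which left 0 bile acid genes called, 0 with a fold change over 1.5, 23 genes in all and 21 with that fold change, from 6 libraries. Scaling on hepatocyte markers left 1 bile acid gene with a fold change over 1.5, called 1731 genes in all and 280 with that fold change, and gave Abcb4 a log2 fold change of 0.0255 and Klb one of 0.0804; of its calls 11.7% were lower, against 53.2% with TMM. The number of all genes called was 1167 with DESeq2, 1258 without a count filter (321 with a fold change over 1.5), 1338 with the replicate block and 1189 with the identification number range as a covariate. Leaving out 1 library gave 4 to 6 bile acid genes called lower, 2 to 3 with a fold change over 1.5, 0 higher, 279 genes in all when Mir483Pat-KO replicate 4 was absent to 863 when WT replicate 2 was and 97 to 233 with that fold change. It gave marker ratios of 0.882 to 0.915 for hepatocyte (adjusted p from 0.0477, without Mir483Pat-KO replicate 1, to 0.143), 1.29 to 1.40 for erythroid (0.0477 to 0.143) and 0.793 to 0.902 for intestine and pancreas markers (0.0476 to 0.175), by exact permutation. Same-numbered libraries deviated together by a correlation of 0.0871 on average (−0.0496 to 0.261), so the numbers were not taken as pairs; with the replicate block 5 bile acid genes were called, Abcc2 (edgeR adjusted p = 0.0263) being the added one. With the longest transcript as length, 6 of 10 genes kept their place in the order of levels. Lower calls were 71.5% without Mir483Pat-KO replicate 3, 68.8% without replicate 4 and 63.8% without WT replicate 4. Depth limits Cyp7b1 and Nr0b2, with at most 10 and 35 counts per library.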

Other observations

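The groups did not overlap, with Mir483Pat-KO lower, for 2 of 14 other synthesis enzymes, 4 of 14 other transporters and 3 of 19 regulators tested, against 3.26% of all genes tested. Among these, Abcg8 and Hnf4a fall outside the rule for naming genes, as does Slco1a1, which was not tested, and these 3 genes were picked after their values had been seen. Slco1a1, an organic anion transporter that also carries bile acids in adult liver, had 17, 16, 10, 7 and 12 counts in WT and 5, 3, 7, 2 and 3 in Mir483Pat-KO; its lowest WT and highest Mir483Pat-KO values were nearly equal, at 0.539 and 0.536 CPM, and it did not reach the count filter. Abcg8, the other subunit of the cholesterol exporter, stood at 6.32 ± 0.87 CPM in WT and 4.01 ± 1.20 in Mir483Pat-KO (SD, 5 libraries each; log2 fold change −0.65, edgeR adjusted p = 0.0504). Hnf4a, which encodes a nuclear receptor of hepatocytes, stood at 382 ± 26.0 and 324 ± 17.1 CPM (log2 fold change −0.24, edgeR adjusted p = 0.0540). The adjusted p of both missed the threshold.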
